A study of Mus musculus with 8 samples.

Results

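Genes of lipogenesis and sterol synthesis were followed in RNA from mouse quadriceps, in which 33 genes were listed by name for their roles in building fatty acids, in building sterols, or in the control of both. Entries were found for 32 of the 33, among 43239 distinct gene names in the files, and Mvd is not analysed here. The list holds 14 genes of fatty acid synthesis, elongation and desaturation, 5 genes of SREBP regulation and 14 sterol genes, of which 13 had an entry. The samples were 4 libraries labelled Mss51-/- (KO) and 4 labelled wild type (WT), from the quadriceps of female mice aged 6 months with free access to food and water, per the labels. The labels give neither the design of the allele nor the strain, and no treatment, batch or fasting time.

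Lipogenesis turns cytosolic acetyl-CoA into malonyl-CoA and then palmitate, which elongases lengthen and desaturases bend. The sterol pathway starts from the same acetyl-CoA, passes through mevalonate and farnesyl diphosphate, and closes the rings of lanosterol on the way to cholesterol. Both are under SREBP transcription factors, which are held in the endoplasmic reticulum by SCAP and INSIG proteins when sterols are plentiful and are cut free when they are scarce. Liver and fat are the main sites of lipogenesis in mice, and muscle carries out less of it, using the malonyl-CoA from its own carboxylase mainly as a brake on the entry of fatty acids into mitochondria.

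Mss51, the gene named as deleted, encodes a mitochondrial protein of muscle and lies on chromosome 14 at 20482867 to 20496901 of mm10. It was not low in the libraries labelled KO. Its FPKM (fragments scaled by transcript length and by the mapped fragments of the library) was 340, 201, 216 and 207 in the libraries labelled KO, against 22.9, 37.0, 27.5 and 24.8 in those labelled WT. The difference was 3.07 on the log2 scale, SE 0.20 (limma adjusted p = 0.000643), in the direction opposite to a deletion. Every group and direction below is therefore that of the labels alone, written as the libraries labelled KO or WT. Among other muscle genes, Myh4 was listed at 0 in all 8 libraries and Tnnt3 in KO replicates 1 and 3 and WT replicates 2 and 4, so a listed 0 can be a failed estimate. No member with a mean of at least 1 FPKM was listed at 0 in any library. KO replicate 1 stood apart from the other libraries labelled KO: without it, 125 of 11878 genes, or 1.05%, passed the test in place of 6.

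Promoter sequence is shown for 3 members, chosen for what they carry in the results: Fasn varied widely between libraries, Hmgcs1 has the sterol response element sought, and Lss was the member whose groups did not overlap. Each window runs from 250 bases before to 50 bases after the RefSeq start, 5′ to 3′ on the strand of the gene, in build GRCm38.p6. Capitals mark TCACNCCAC (a sterol response element bound by SREBPs), CCAAT (bound by the factor NF-Y) and GGGCGG (bound by Sp1 and related factors), on either strand, so that ATTGG and CCGCCC are capitalised too. Fasn lies at chr11:120824498-120824797 on the minus strand, Hmgcs1 at chr13:119690101-119690400 on the plus strand and Lss at chr10:76531355-76531654 on the plus strand.
Fasn: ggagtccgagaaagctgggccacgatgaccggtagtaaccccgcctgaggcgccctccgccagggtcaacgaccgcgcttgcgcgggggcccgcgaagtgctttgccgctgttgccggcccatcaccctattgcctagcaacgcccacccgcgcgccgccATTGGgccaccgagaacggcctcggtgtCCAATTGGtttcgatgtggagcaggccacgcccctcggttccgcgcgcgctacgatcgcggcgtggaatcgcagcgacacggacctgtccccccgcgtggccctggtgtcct
Hmgcs1: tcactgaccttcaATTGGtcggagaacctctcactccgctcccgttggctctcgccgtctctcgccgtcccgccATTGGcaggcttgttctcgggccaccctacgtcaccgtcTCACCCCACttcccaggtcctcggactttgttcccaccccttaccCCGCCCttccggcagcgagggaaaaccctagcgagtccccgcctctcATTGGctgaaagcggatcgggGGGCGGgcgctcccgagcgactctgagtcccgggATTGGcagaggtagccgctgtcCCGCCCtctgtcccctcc
Lss: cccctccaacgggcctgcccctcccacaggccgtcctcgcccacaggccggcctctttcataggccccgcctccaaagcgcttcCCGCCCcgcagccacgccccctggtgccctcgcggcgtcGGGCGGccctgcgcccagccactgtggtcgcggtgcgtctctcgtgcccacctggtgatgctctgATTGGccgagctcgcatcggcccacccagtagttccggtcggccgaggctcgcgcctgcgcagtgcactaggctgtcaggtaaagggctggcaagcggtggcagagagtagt

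In these windows Hmgcs1 held 1 sterol response element, 4 CCAAT and 3 GGGCGG matches. The Fasn window held 3 CCAAT matches, of which 2 overlap on opposite strands, and no match to either of the other motifs. Lss had 1 CCAAT and 2 GGGCGG matches. RefSeq windows were matched for 26 of the 32 members, 36 windows in all. CCAAT occurred in 10 of 13 sterol windows, 8 of 13 fatty acid windows and 5 of 10 windows of SREBP regulators, against 37.4% of all 32851 windows of that length. GGGCGG occurred in 10 of 13, 6 of 13 and 8 of 10 of these, against 35.7% of all. The sterol response element was in 2 member windows, those of Hmgcs1 and Mlxipl, against 1.24% of all windows. A match is a description of the letters and no evidence that a factor binds there.

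Levels within the list differed widely in FPKM, a scale that corrects for transcript length. Scd1, the desaturase that makes oleate, was the highest member with a mean of 239 FPKM over the 8 libraries. It made up 15.7 to 36.3% of the summed FPKM of the members in the libraries labelled KO and 29.1 to 42.5% in those labelled WT. Thrsp, a cofactor of lipogenesis, followed at 50.5 FPKM and Acacb, the carboxylase at the outer mitochondrial membrane, at 49.2 FPKM. Their order is not firm, because the 2 genes differed by less than the spread of Thrsp between libraries. Insig2 at 44.2 FPKM was the highest SREBP regulator. Fdft1, which joins farnesyl groups to squalene, at 31.2 FPKM, and the farnesyl diphosphate synthase Fdps at 26.7 FPKM were the highest sterol genes. The entry of Fdps is joined in the files with Rusc1 and a predicted gene, so its value is not of Fdps alone. The lowest members were Sqle, the squalene epoxidase, at 2.21 FPKM, and Lss, the lanosterol synthase, at 0.932 FPKM.

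**Figure D1:**
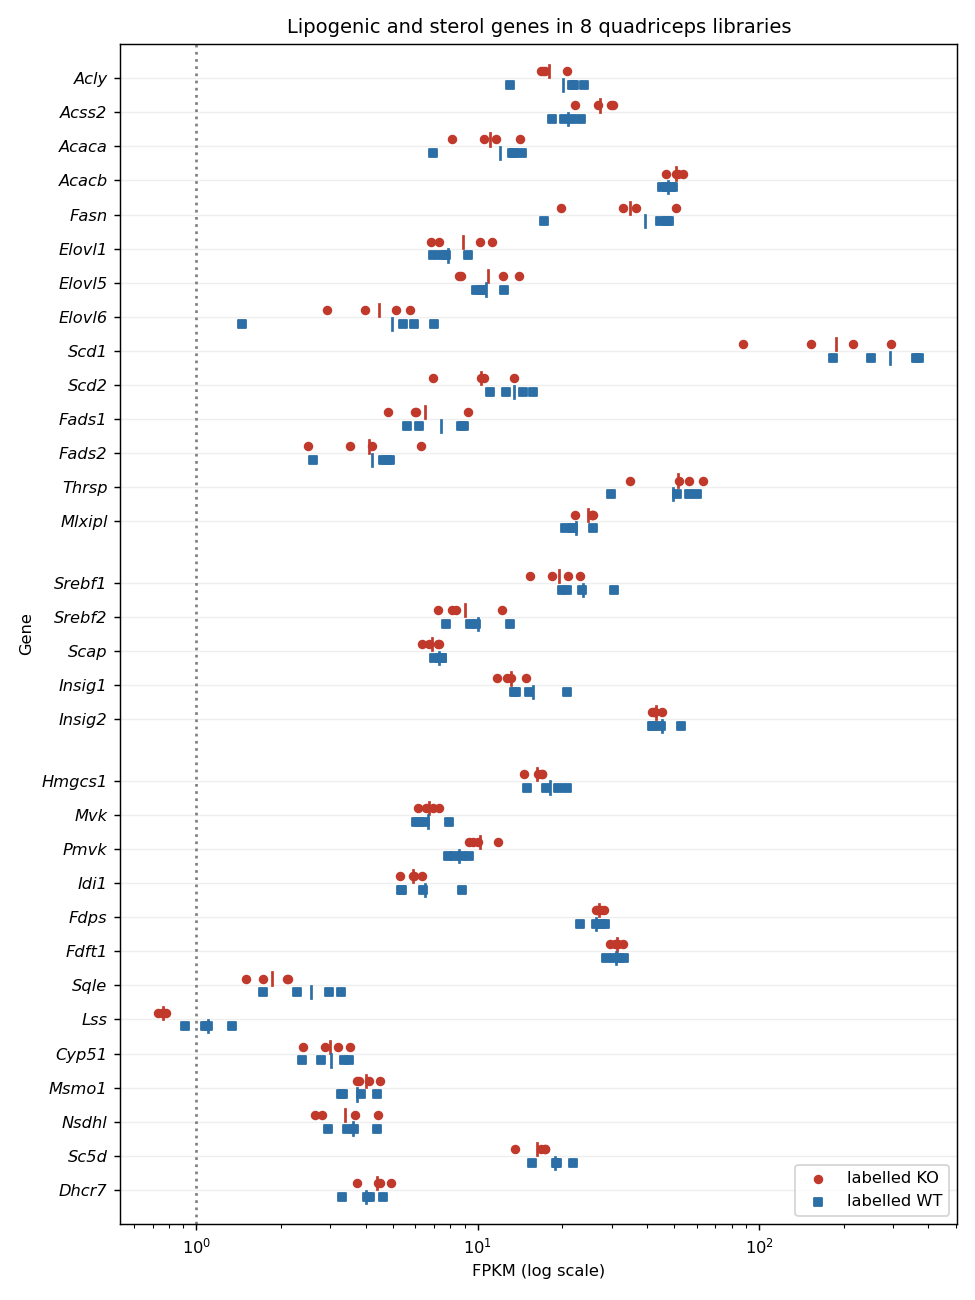
FPKM of the 32 members found (log axis), with 1 point per library, circles for libraries labelled KO above squares for those labelled WT, and short lines at the group means. The dotted line marks 1 FPKM, the mean needed to enter the test, and Lss is the member whose groups do not overlap, 0.734 to 0.779 FPKM in libraries labelled KO and 0.909 to 1.34 FPKM in those labelled WT.

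The question put to the list was whether its genes differed between the labelled groups, and whether the fatty acid and sterol pathways did so alike. Of the 31 members with a mean of at least 1 FPKM, 0 passed the test in either direction (limma on log2(FPKM + 0.5), Benjamini-Hochberg adjusted over 11878 genes, threshold 0.05), with the smallest adjusted p value at 0.353. The background was 6 of 11878 genes, or 0.0505%, all higher in the libraries labelled KO. At an unadjusted p under 0.05 stood 2 members, Acss2 and Pmvk, both higher in the libraries labelled KO, where 10.3% of all tested genes reached it, and 7.5% of all tested genes did so with higher values in the libraries labelled KO. None of the 31 had groups that did not overlap, where 5.5% of all tested genes had such groups. A p above the threshold does not show that levels were alike, so 95% intervals of the log2 fold change are given, each for its gene alone. That interval lay within 0.5 of 0 for 16 of the 31 members and within 1 of 0 for 30, the exception being Scd1. For the fatty acid members the log2 fold changes had their median at -0.03, and 5 of 14 were above 0. Among the sterol members the median was 0.0031 with 6 of 12 above 0, and among the SREBP regulators -0.15 with 0 of 5 above 0. For all genes tested the median was 0.02, with 54.4% above 0. These splits depend on the scaling. The rescaling to TPM used here brought each library to the same summed FPKM over the entries with a gene name alone. That sum includes Tnnt3, listed at 0 in KO replicates 1 and 3 and WT replicates 2 and 4. In the other libraries Tnnt3 was at 7955 to 8888 FPKM. How far such entries set this scale was not tested. After the rescaling, 1 of 14 fatty acid, 1 of 12 sterol and 0 of 5 SREBP members were above 0, as were 17.9% of all genes. Under quantile normalization and median ratio scaling 4 of 12 sterol members were above 0.

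**Figure D2:**
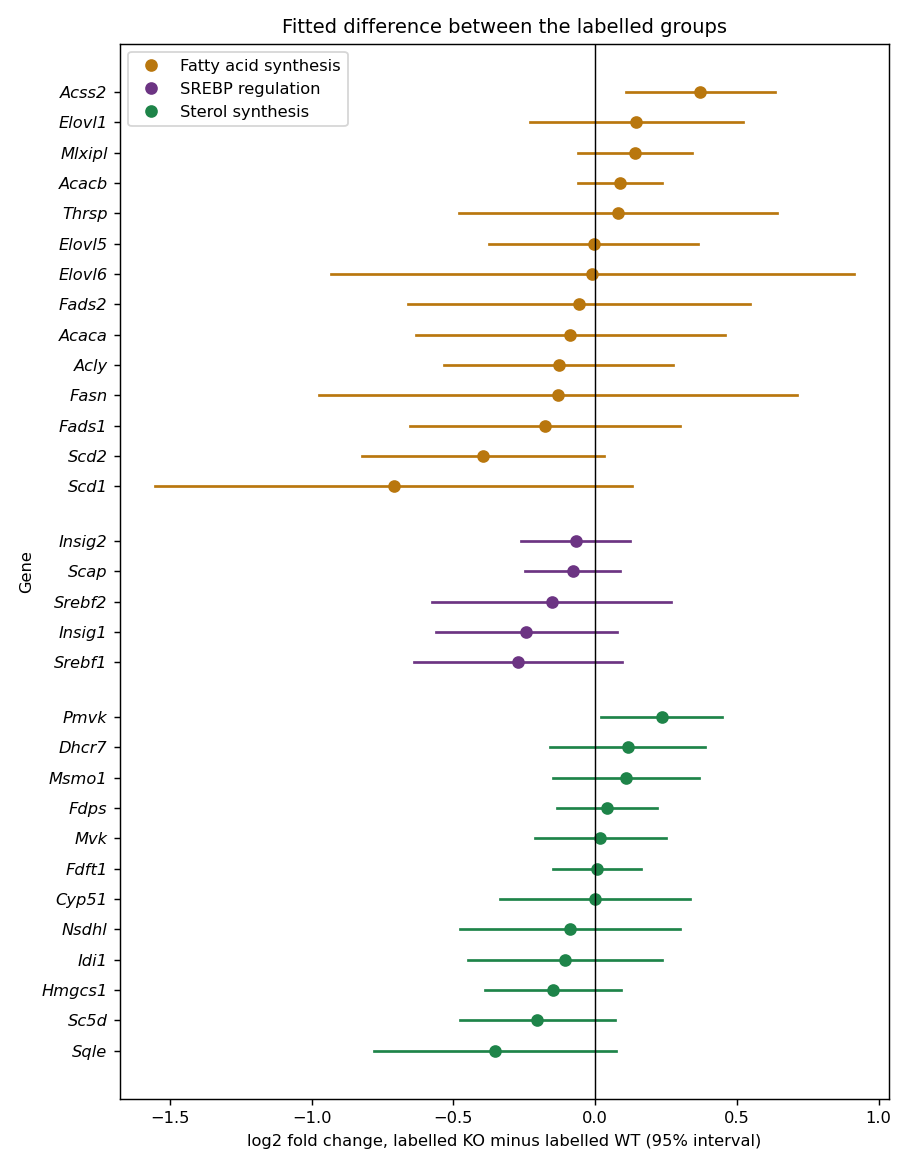
Log2 fold change of the 31 tested members, libraries labelled KO minus libraries labelled WT (horizontal axis), as points with 95% intervals from limma, in order of size within each pathway. The widest intervals belong to fatty acid genes, with Scd1 from -1.55 to 0.13, and the intervals of Acss2 and Pmvk lie above 0 before any adjustment for the number of genes.

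At the supply of acetyl-CoA, both enzymes were at similar levels and neither passed the test. Acss2, the cytosolic acetyl-CoA synthetase that uses acetate, had 22.2, 29.8, 26.8 and 30.4 FPKM in the libraries labelled KO, against 21.7, 20.3, 18.3 and 23.3 FPKM in those labelled WT. KO replicates 2, 3 and 4 were above every library labelled WT, and KO replicate 1 lay inside their range. The fitted difference was 0.37 on the log2 scale, SE 0.12 (limma adjusted p = 0.353). Without 1 library it ran from 0.31 without WT replicate 3 to 0.46 without KO replicate 1 (limma adjusted p = 0.0856 for the latter). After rescaling to TPM it was 0.16. Acly, which splits citrate to acetyl-CoA, had 20.9, 17.1, 17.4 and 16.7 FPKM in the libraries labelled KO, against 23.9, 21.7, 13.1 and 22.0 FPKM in those labelled WT (log2 fold change -0.13, 95% interval -0.53 to 0.27). The lowest Acly value of all was in WT replicate 3.

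Fatty acid synthase, Fasn, which builds palmitate, had 50.5, 36.4, 32.8 and 19.9 FPKM in the libraries labelled KO, against 48.1, 47.2, 17.3 and 44.4 FPKM in those labelled WT. The spread within each group was far wider than the distance between their means of 34.9 ± 12.6 and 39.2 ± 14.7 FPKM (SD, n = 4 each). Its fitted log2 fold change of -0.13 had a 95% interval of -0.98 to 0.71, and ran from -0.48 without WT replicate 3 to 0.11 without KO replicate 4. Acaca, the cytosolic acetyl-CoA carboxylase, had 14.1, 11.6, 10.5 and 8.14 FPKM in the libraries labelled KO, against 13.3, 13.4, 6.94 and 14.4 FPKM in those labelled WT. Here too KO replicate 4 and WT replicate 3 were the low libraries of their groups. Acacb was among the steadiest members, with 46.9 to 53.9 FPKM in the libraries labelled KO against 45.3 to 49.4 FPKM in those labelled WT (log2 fold change 0.09, 95% interval -0.06 to 0.24).

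Elongases differed in how they varied. Elovl6, which lengthens palmitate, had 5.76, 4.00, 5.13 and 2.92 FPKM in the libraries labelled KO, against 5.95, 6.98, 1.45 and 5.42 FPKM in those labelled WT. Its within-group SD of 0.69 on the log2(FPKM + 0.5) scale was the widest of the members. Elovl5, an elongase of polyunsaturated fatty acids, had 8.56, 14.0, 8.71 and 12.3 FPKM in the libraries labelled KO, against 10.3, 10.3, 12.4 and 9.88 FPKM in those labelled WT. Unlike Elovl6, it was highest among the libraries labelled WT in replicate 3. Elovl1, an elongase of saturated very long chains, also had its highest value of that group there, 9.28 FPKM.

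Scd1 had 294, 216, 153 and 87.5 FPKM in the libraries labelled KO, against 249, 371, 183 and 360 FPKM in those labelled WT. Its groups overlapped, with KO replicate 1 above WT replicates 1 and 3. The log2 fold change of -0.71 (SE 0.37, limma adjusted p = 0.548) was the most negative of the list and did not pass, and ran from -0.97 without KO replicate 1 to -0.39 without KO replicate 4. Scd2, a second desaturase beside Scd1 on chromosome 19, had 13.5, 10.5, 6.91 and 10.3 FPKM in the libraries labelled KO, against 15.7, 14.4, 12.6 and 11.0 FPKM in those labelled WT (-0.39, SE 0.19, adjusted p = 0.520). The 2 desaturases are close copies, so the split of reads between them is uncertain.

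Fat cells express Scd1 and Fasn strongly, so adipocyte markers were set beside these values. None of the 11 tested markers passed the test, 8 of the 11 were below 0, and their median log2 fold change was -0.47. At an unadjusted p under 0.05, 4 of the 11 (Adipoq, Plin1, Lep and Trarg1) were lower in the libraries labelled KO, where 2.76% of all tested genes were. Adipoq, the adipocyte hormone adiponectin, had 32.6, 29.7, 25.3 and 18.8 FPKM in the libraries labelled KO, against 29.1, 43.8, 50.7 and 30.2 FPKM in those labelled WT. Plin1, the coat protein of the adipocyte lipid droplet, had 15.5, 8.65, 8.07 and 4.95 FPKM in the libraries labelled KO, against 13.0, 16.004, 11.6 and 18.7 FPKM in those labelled WT. Over the 4 libraries labelled KO, 3 of the 11 markers (Adipoq, Plin1 and Retn) had the same order as Scd1 and the other 8 did not. A full order is a strict measure, and its share over all tested genes is not given here. Scd1 and Fasn were lowest of the libraries labelled KO in replicate 4. So were Adipoq, Plin1, Cfd, Retn, Cidec, Adrb3 and Trarg1, while Lep, Cidea, Fabp4 and Pck1 were not. Among the libraries labelled WT, replicate 3, where Fasn and Elovl6 were lowest, was the lowest for 3 of the 11 markers (Plin1, Retn and Cidea) and the highest for 4 (Adipoq, Cfd, Adrb3 and Pck1). Lep, the hormone leptin, had 2.79, 0.577, 0.324 and 0.353 FPKM in the libraries labelled KO, against 2.29, 4.40, 3.88 and 2.88 FPKM in those labelled WT (-1.59, limma adjusted p = 0.347). The summed FPKM of all 12 markers was 684 to 988 in the libraries labelled KO and 659 to 946 in those labelled WT. Fabp4 and Cfd, with means of 428 and 268 FPKM, weigh most in that sum. Each of the 11 tested markers was also taken relative to its WT mean on the log2(FPKM + 0.5) scale. Their mean was -0.19, -0.25, -0.42 and -0.82 in the libraries labelled KO, against -0.39, 0.02, 0.09 and 0.27 in those labelled WT. Groups overlapped in both measures. Of the list only Ucp1, a brown fat gene, was listed at 0 in any library. The part of fat cells in the Scd1 values was not tested. In whole muscle, fewer cells of a type and less RNA per cell cannot be told apart.

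**Figure D3:**
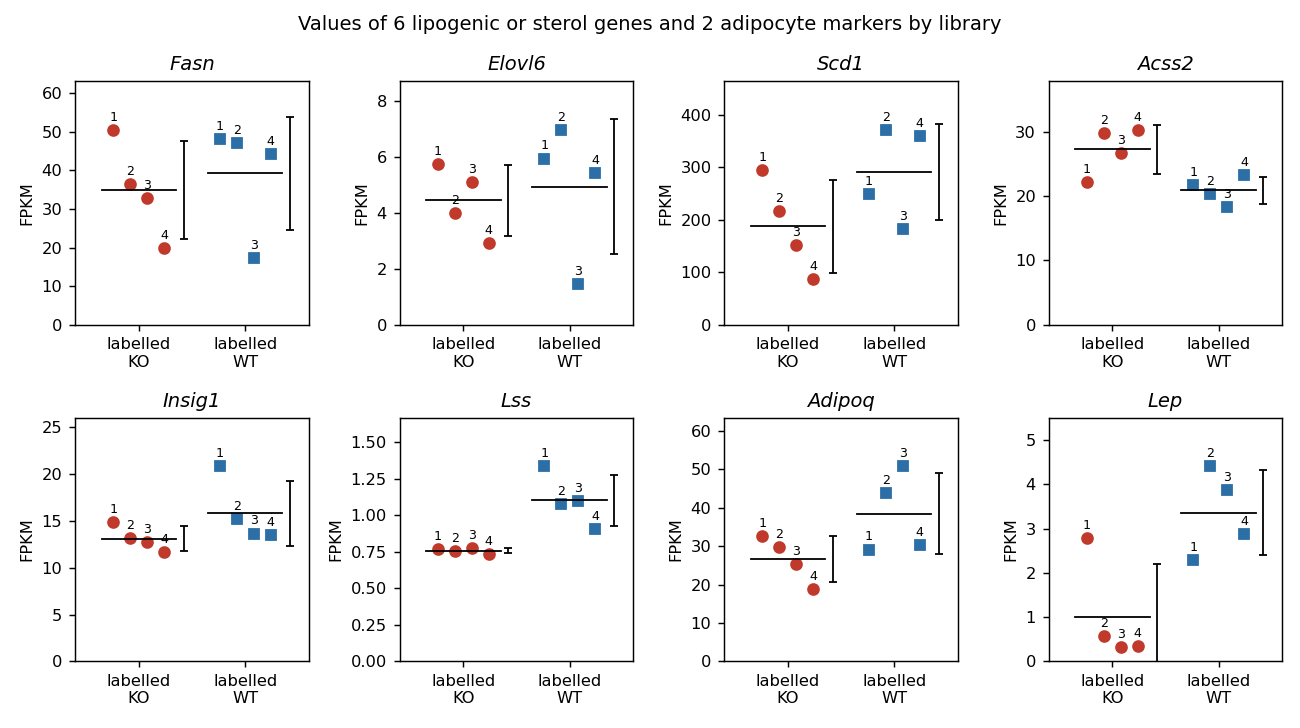
FPKM by library (vertical axes from 0) of Fasn, Elovl6, Scd1, Acss2, Insig1, Lss and the adipocyte markers Adipoq and Lep, libraries labelled KO left of those labelled WT, numbered by replicate. Horizontal lines are means and side bars the SD of 4 libraries (the lower end for Lep in the libraries labelled KO is below 0 and not drawn). Fasn and Elovl6 are lowest in KO replicate 4 and WT replicate 3 of their groups. Adipoq is lowest of its group in KO replicate 4 but highest in WT replicate 3, whereas Plin1 and Retn, not drawn, are lowest in both.

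The front-end desaturases of polyunsaturated fatty acids did not follow Fasn. Fads1 had 6.03, 6.01, 4.80 and 9.24 FPKM in the libraries labelled KO, against 8.98, 6.21, 8.72 and 5.63 FPKM in those labelled WT. Fads2 had 4.22, 3.53, 2.50 and 6.27 FPKM in the libraries labelled KO, against 4.90, 4.78, 4.60 and 2.60 FPKM in those labelled WT. Both were highest of the libraries labelled KO in replicate 4, where Fasn was lowest, and lowest of those labelled WT in replicate 4.

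Thrsp, a target of thyroid hormone, had 63.1, 56.5, 52.1 and 34.8 FPKM in the libraries labelled KO, against 51.3, 60.0, 29.9 and 56.2 FPKM in those labelled WT (0.08, 95% interval -0.48 to 0.64). The low libraries were once more KO replicate 4 and WT replicate 3. Mlxipl, the glucose-responsive factor ChREBP, had 22.1 to 25.8 FPKM in the libraries labelled KO against 20.5 to 25.7 FPKM in those labelled WT (0.14, 95% interval -0.06 to 0.34).

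The pattern of 2 low libraries was counted over each list after the values were seen. Acly, Acaca, Fasn, Elovl6, Scd1 and Thrsp, 6 of 14 fatty acid members, were lowest of the libraries labelled KO in replicate 4 and of those labelled WT in replicate 3. None of the 5 SREBP regulators and none of the 12 sterol members were, against 4.92% of all tested genes. Of 15 tested genes in a list of further fatty acid genes, 4 had the pattern, among them Slc25a1, the citrate carrier, Me1, the malic enzyme that gives NADPH, and Mid1ip1, a partner of acetyl-CoA carboxylase. Slc25a1 had 28.2, 20.4, 19.2 and 10.8 FPKM in the libraries labelled KO, against 19.7, 24.4, 10.8 and 21.4 FPKM in those labelled WT. The pattern was also found in 2 of 20 further sterol genes (Acat2 and Mylip) and in 2 of 11 adipocyte markers (Plin1 and Retn). Acss2 ran against it in the libraries labelled KO, with its highest value in replicate 4. Genes of 1 pathway and 1 set of libraries are not independent, and these counts carry no test.

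**Figure D4:**
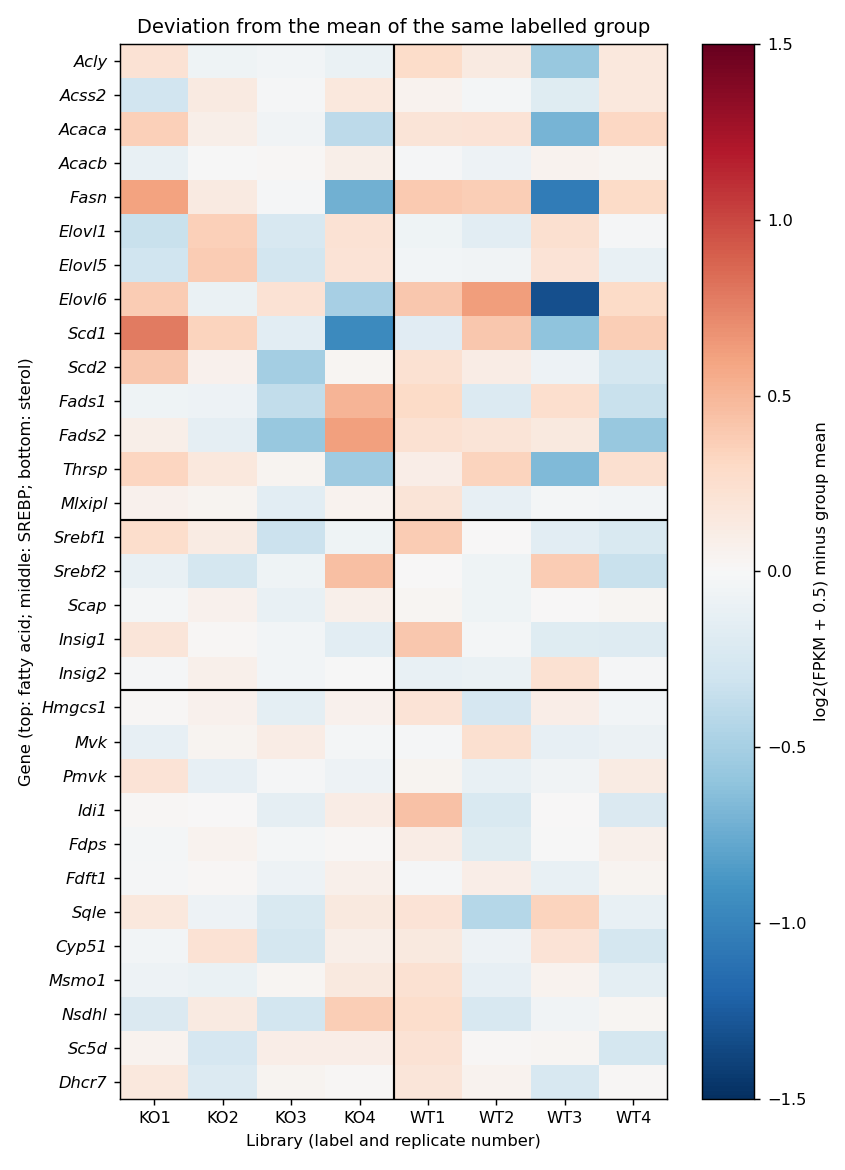
Log2(FPKM + 0.5) of the 31 tested members minus the mean of the 4 libraries with the same label (colour), by library (columns, KO left of WT) and gene (rows). Acly, Acaca, Fasn, Elovl6, Scd1 and Thrsp are lowest of their groups in KO replicate 4 and WT replicate 3. The cell of Acly in KO replicate 4 is pale, at -0.097. The sterol rows vary less, with a median within-group SD of 0.16 against 0.33 for the fatty acid rows, though Sqle reaches -0.43 in WT replicate 2.

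The 5 SREBP regulators had log2 fold changes of -0.27 to -0.07 and none passed; Insig2 turned to 0.0066 without WT replicate 3. Srebf1, the factor tied mainly to lipogenesis, had 23.1, 21.0, 15.4 and 18.3 FPKM in the libraries labelled KO, against 30.6, 23.5, 20.8 and 19.9 FPKM in those labelled WT (-0.27, SE 0.16, limma adjusted p = 0.607). Insig1, a retention protein that is itself an SREBP target, had 14.9, 13.2, 12.7 and 11.7 FPKM in the libraries labelled KO, against 20.8, 15.2, 13.6 and 13.5 FPKM in those labelled WT (-0.24, SE 0.14, adjusted p = 0.598). The highest value of both was in WT replicate 1, and the other 3 libraries labelled WT lay close to or within the range of those labelled KO. Srebf2, the factor tied mainly to sterols, had 8.10, 7.26, 8.41 and 12.2 FPKM in the libraries labelled KO, against 9.91, 9.43, 13.0 and 7.74 FPKM in those labelled WT (-0.15, SE 0.19). It was highest in KO replicate 4 and WT replicate 3, the libraries in which Fasn was lowest. Scap, the escort of SREBPs, had 6.73, 7.21, 6.36 and 7.32 FPKM in the libraries labelled KO, against 7.44, 6.98, 7.36 and 7.48 FPKM in those labelled WT (-0.08, 95% interval -0.25 to 0.09). Insig2 had 42.4, 45.2, 41.8 and 42.7 FPKM in the libraries labelled KO, against 41.6, 42.1, 52.7 and 44.7 FPKM in those labelled WT (-0.07, 95% interval -0.26 to 0.12).

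In the mevalonate branch the values were tighter. Hmgcs1, which makes HMG-CoA, had 16.3, 17.0, 14.6 and 17.0 FPKM in the libraries labelled KO, against 20.8, 15.0, 19.2 and 17.5 FPKM in those labelled WT (-0.15, 95% interval -0.39 to 0.09). Pmvk, the phosphomevalonate kinase, had 11.8, 9.30, 10.1 and 9.64 FPKM in the libraries labelled KO, against 8.83, 7.88, 8.26 and 9.35 FPKM in those labelled WT. Its groups met at a single point, since KO replicate 2 lay just under WT replicate 4. The fitted difference was 0.23 on the log2 scale, SE 0.09 (limma adjusted p = 0.443), and 0.03 after rescaling to TPM. Mvk, the kinase before it, had a log2 fold change of 0.02 (95% interval -0.21 to 0.25) and Idi1, the isopentenyl diphosphate isomerase, -0.11 (95% interval -0.45 to 0.23). Fdps had 26.5, 28.0, 26.4 and 27.3 FPKM in the libraries labelled KO, against 28.4, 23.1, 26.3 and 27.8 FPKM in those labelled WT (0.04, 95% interval -0.13 to 0.22).

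From squalene onward, Fdft1 was nearly the same in all libraries, with 30.9, 31.6, 29.6 and 32.9 FPKM in those labelled KO against 30.6, 33.2, 28.7 and 31.9 FPKM in those labelled WT. Its log2 fold change of 0.01 had a 95% interval of -0.15 to 0.16. Sqle, an oxygen-dependent step, had 2.12, 1.72, 1.51 and 2.11 FPKM in the libraries labelled KO, against 2.97, 1.72, 3.27 and 2.28 FPKM in those labelled WT (-0.35, SE 0.19, limma adjusted p = 0.556). WT replicate 2 lay among the libraries labelled KO, and the other 3 libraries labelled WT were above all of them. Sc5d, a desaturase of the sterol ring, had 16.8, 13.5, 17.4 and 17.4 FPKM in the libraries labelled KO, against 21.9, 18.9, 19.1 and 15.6 FPKM in those labelled WT (-0.20, SE 0.12, adjusted p = 0.603).

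Lss, which closes the sterol rings, was below the 1 FPKM mean and outside the test. It had 0.768, 0.756, 0.779 and 0.734 FPKM in the libraries labelled KO, against 1.34, 1.08, 1.10 and 0.909 FPKM in those labelled WT. All 4 libraries labelled KO were below all 4 labelled WT, where 1.32% of 21819 genes with any value above 0 were lower without overlap. With no filter on low values the fitted difference was -0.34 on the log2 scale, SE 0.12 (limma adjusted p = 0.533), which the pseudocount of 0.5 makes smaller at such a level. It did not pass, where 0.0229% of those genes did. The later steps were spread around 0: Cyp51, the lanosterol demethylase (-3.9e-05), Msmo1 (0.11) and Nsdhl (-0.09), which remove the methyl groups at carbon 4, and Dhcr7, the last reductase (0.12), each with a 95% interval that holds 0.

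Per library, the mean over the members of a pathway was taken relative to the WT mean of each gene, on the log2(FPKM + 0.5) scale. For the fatty acid genes it was 0.09, 0.03, -0.21 and -0.16 in the libraries labelled KO, against 0.15, 0.12, -0.31 and 0.03 in those labelled WT. The sterol genes stood at -0.02, -0.05, -0.11 and 0.05 in the libraries labelled KO, against 0.17, -0.11, 0.01 and -0.07 in those labelled WT. Groups overlapped for both. The fatty acid level minus the sterol level was -0.21 to 0.11 in the libraries labelled KO and -0.32 to 0.23 in those labelled WT, with the lowest value of each group in KO replicate 4 and WT replicate 3. The within-group SD had a median of 0.33 over the fatty acid members and 0.16 over the sterol members, against 0.18 over all genes tested. Fasn, Elovl6 and Scd1 varied more than 96.0%, 96.7% and 96.0% of all genes tested.

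Shares of a gene in a pair of related genes do not depend on the scaling of a library. Scd1 made up 94.0 ± 3.02% of the FPKM of Scd1 and Scd2 in the libraries labelled KO and 95.2 ± 1.67% in those labelled WT (SD, n = 4 each). Acacb made up 82.0 ± 4.14% of both carboxylases in the libraries labelled KO and 80.0 ± 5.15% in those labelled WT. For Insig1 in both INSIG genes the shares were 23.3 ± 1.90% in the libraries labelled KO and 25.9 ± 5.51% in those labelled WT, and for Srebf1 in both SREBP genes 68.3 ± 7.10% in the libraries labelled KO and 70.1 ± 6.02% in those labelled WT. Fads1 in both FADS genes was 61.8 ± 3.22% in the libraries labelled KO and 63.8 ± 5.08% in those labelled WT. None of the 5 differences passed the test (two-sided exact permutation p = 0.514 to 0.8286 over 70 assignments, adjusted p = 0.8214 to 0.8286 over the 5 pairs). The smallest p possible in this permutation test was 0.0286.

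Further genes of both pathways were taken from lists made by role. Of the 15 tested fatty acid genes 0 passed, with 9 above 0 and a median log2 fold change of 0.05. The smallest p values belonged to Mid1ip1 (29.5, 27.0, 28.5 and 20.0 FPKM in the libraries labelled KO, against 20.0, 25.2, 16.4 and 21.5 FPKM in those labelled WT; 0.33, limma adjusted p = 0.514) and Nr1h3, the sterol sensor LXR alpha (0.19, adjusted p = 0.588). For Nr1h3 all libraries labelled KO (13.27 to 14.31 FPKM) were above all labelled WT (9.64 to 13.20 FPKM). Groups did not overlap, in either direction, for 5.5% of all tested genes. Of the 20 tested sterol genes 0 passed, with 9 above 0 and a median of -0.03. Ebp, the sterol isomerase, had a log2 fold change of 0.16 (limma adjusted p = 0.537).

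Markers of the other cell types in a muscle sample overlapped between the groups, with 0 genes past the test in each list. Summed FPKM was 26.0 to 39.8 in the libraries labelled KO and 24.3 to 34.6 in those labelled WT for 8 Schwann cell genes. For 6 macrophage genes it was 77.0 to 120.0 in the libraries labelled KO and 85.7 to 109 in those labelled WT, and for 6 endothelial genes 72.9 to 135 in the libraries labelled KO and 79.5 to 101 in those labelled WT. For 6 fibroblast genes it was 599 to 891 in the libraries labelled KO and 771 to 846 in those labelled WT. Ckm, the muscle creatine kinase, was 9230 to 11554 FPKM in the libraries labelled KO and 10545 to 12716 FPKM in those labelled WT, and Acta1 is not analysed here. The log2 fold change of Ckm was -0.11. Of the 6 tested skeletal muscle markers 4 were above 0, with Mb, given under other observations, the highest at 0.95. That count includes Tnnt3, which was listed at 0 in KO replicates 1 and 3 and WT replicates 2 and 4. The defining markers Prx, Adgre1, Csf1r, Pecam1, Cdh5, Pdgfra and Col1a1 were above 0 in all 8 libraries. The part of these cells in the members' values was not tested.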

How the data were processed

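RNA from quadriceps was sequenced as paired-end reads on an Illumina instrument after oligo(dT) enrichment, per the labels' protocol. The authors deposited 1 table of FPKM per library with 46036 entries, and the submitters' processing notes name build mm10 and the tools Cufflinks 2.2.1, Bowtie2 2.2.6, TopHat2 2.1.1 and FastQC. Annotation, strand setting and filters are not given in the sources used here. No counts were used, so depth is unknown and no counting interval is given. Entries without a gene name numbered 2379 and carried 65.8 to 93.2% of the summed FPKM. The 8 libraries were compared, labelled KO minus labelled WT, with limma 3.58.1 on log2(FPKM + 0.5) for the 11878 genes that averaged 1 FPKM or more, with Benjamini-Hochberg adjustment. Shares were compared by two-sided exact permutation. Every library was given for the members with the 3 smallest p values or the 2 highest means of their pathway. Acly, Acaca, Fasn, Elovl5, Elovl6, Fads1, Fads2, Srebf2, Hmgcs1 and Lss were given in the same way outside that rule, after their values were seen. The members and lists were chosen with earlier results of these data known. The labels number the samples without naming cages, litters or days, so p values measure the spread between these samples. Promoters are from RefSeq (GRCm38.p6) and gene positions from GENCODE M21. Other pseudocounts, filters, scalings, weights, a replicate block and leaving out each library were tried. Values of some genes of the wider lists are not reported here.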

Additional observations from a re-analysis of the deposited data

Results flagged for a closer look

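Of 82 group values checked, 9 had a library far from the other 3 of its group, by a gap above the 95% critical value of Dixon's test. Chance alone marks about 1 in 20 such groups where values are normal and independent. The values checked were not independent, since the Acacb share is computed in part from the Acaca value. Acaca at 6.94 FPKM, Fasn at 17.3 FPKM and the share of Acacb in both carboxylases at 87.7% stood apart in WT replicate 3. The share of Scd1 in both desaturases stood apart at 89.5% in KO replicate 4. Acly stood apart at 20.9 FPKM and Mss51 at 340 FPKM in KO replicate 1. Sc5d stood apart at 13.5 FPKM in KO replicate 2, Mlxipl at 22.1 FPKM in KO replicate 3 and Fads2 at 2.60 FPKM in WT replicate 4.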

How the results depend on the processing

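None of the 31 members passed the test under any alternative run. Genes called among all tested numbered 119 after rescaling to TPM, and 4 to 125 when 1 library was left out (125 without KO replicate 1). Same-numbered libraries did not deviate together (correlations -0.08 to 0.0093); with the number as a replicate block 0 genes passed (958 at an unadjusted p under 0.05, 5 of them members), and Mss51 kept 3.07 at an adjusted p of 0.0530. Mss51 ranged from 2.89 to 3.21 without 1 library. On the TPM scale all genes had a median of -0.18, and this scale moved the medians of the fatty acid, SREBP and sterol members to -0.23, -0.36 and -0.19. Without 1 library those medians ran from -0.12 to 0.05, -0.26 to -0.0768 and -0.05 to 0.03. TPM turned Acacb to -0.12, Elovl1 to -0.0543, Thrsp to -0.13, Mlxipl to -0.0670, Mvk to -0.18, Fdps to -0.17, Fdft1 to -0.20, Msmo1 to -0.0779 and Dhcr7 to -0.0748. A pseudocount of 0.1 turned Elovl6 to 0.0124 and Cyp51 to 0.00019, quantile normalization Mvk to -0.00010 and Fdft1 to -0.0237, median ratio scaling Mvk to -0.0050 and Fdft1 to -0.0190, and array weights Elovl5 to 0.0129 and Cyp51 to 0.0128. Leaving out 1 library turned Acaca (-0.32 to 0.0450), Cyp51 (-0.0894 to 0.0870), Elovl5 (-0.13 to 0.10), Elovl6 (-0.45 to 0.20), Fads2 (-0.26 to 0.13), Fasn (-0.48 to 0.11), Fdft1 (-0.0314 to 0.0381), Fdps (-0.0210 to 0.0771), Idi1 (-0.18 to 0.0410), Insig2 (-0.11 to 0.0066), Mvk (-0.0233 to 0.10), Nsdhl (-0.21 to 0.0042) and Thrsp (-0.14 to 0.26). It also turned the difference in the Scd1 share (-1.74 to 0.319 percentage points) and the Srebf1 share (-4.69 to 0.916), both without KO replicate 4. Directions held in 286 of 303 values under the other settings and in 217 of 248 without 1 library. Other filters, summed repeated names and the replicate block leave the log2 fold change of a member as it was, so no direction could turn there. All 17 turns under the other settings came from pseudocounts, scalings and array weights. The causes were not tested. FPKM without counts limits what can be said of low genes such as Lss and Sqle.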

Other observations

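Elovl4, an elongase of very long chains that was below 1 FPKM and outside the test, had 0.0212, 0.0578, 0.0418 and 0.00792 FPKM in the libraries labelled KO, against 0.1795, 0.128, 0.421 and 0.134 FPKM in those labelled WT. All libraries labelled KO were below all labelled WT, as for 1.32% of the 21819 genes with any value above 0, and with no filter on low values it did not pass (limma adjusted p = 0.480). It was named after its values were seen. Mb, the oxygen store myoglobin, had 1838, 4704, 3645 and 4010 FPKM in the libraries labelled KO, against 1624, 1695, 1686 and 1937 FPKM in those labelled WT (log2 fold change 0.95, limma adjusted p = 0.347). KO replicate 1 lay within the range of the libraries labelled WT.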
